A study of Mus musculus with 36 samples.

Results

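The genes described here are 32 genes of homologous recombination and of the Fanconi anaemia pathway, chosen by name. All 32 were present among the 12762 genes of the deposited mRNA-seq table. They were read in B3, a mouse pre-B cell line, in 36 libraries. Control cells and Ikaros cells were collected at 0, 2, 6, 12, 18 and 24 h, which gave 12 groups of 3 libraries. The study asked how mRNA levels changed after the transcription factor Ikaros entered the nucleus. Ikaros cells were B3 cells infected with an MSCV retroviral vector for HA-Ikaros fused to ERt2, the hormone-binding domain of the estrogen receptor, followed by an IRES and GFP. Control cells carried the same vector with ERt2 and GFP but without Ikaros. Both lines were sorted for GFP and received 4-OHT (hydroxytamoxifen, the drug that releases ERt2 fusions into the nucleus) at 0.5 uM for the stated time before collection. The labels list 4-OHT at 0 h as well, whereas the study's methods describe the 0 h cultures as untreated and as collected separately. Both lines derive from a single cell line, and the 3 libraries of a group came from separate culture batches. In these bulk RNA samples, fewer cells that express a gene and less RNA per cell cannot be told apart.

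Homologous recombination repairs breaks in both DNA strands by copying the intact sister chromatid, mainly in S and G2 phase. The MRE11-RAD50-NBS1 complex senses the broken end, nucleases such as EXO1 resect it, BRCA1, PALB2 and BRCA2 prepare the resected strand for exchange with help from accessory factors such as XRCC2 and XRCC3, and BLM, MUS81 or GEN1 separate the joined molecules. The Fanconi core complex marks FANCD2 and FANCI with ubiquitin at interstrand crosslinks and hands the lesion to the same machinery. Developing B cells make programmed breaks at their immunoglobulin loci, which are joined mainly by the other route, non-homologous end joining.

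The deposited values are log2 expression levels on a scale shared by all libraries. Library medians lay between 11.70 and 11.73, and the mean correlation of a library with its own group was 0.966 to 0.991. The values are not counts, and the depth behind each of them was not measured here. The Ikaros gene itself, Ikzf1, read 13.95 to 14.85 in the control libraries and 19.63 to 20.93 in the Ikaros libraries, so no library went against its label. All 10 markers of the pre-B lineage looked for were in the table, against 0 of 5 T cell markers, 0 of 5 stromal markers, 2 of 5 myeloid markers and 1 of 5 erythroid markers. At 24 h the myeloid markers present went opposite ways, with Itgam at a mean of 5.11 in control and 9.35 in Ikaros cells (log2 difference 4.24, SE 0.54) and Lyz2 at 7.61 and 4.68 (-2.94, SE 0.56), and the erythroid marker Klf1 differed by 0.24 (SE 0.34). Their part in the members' values was not tested.

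By 24 h most of the repair genes had fallen in Ikaros cells. Against control cells at the same time, 24 of 32 members (75%) were lower and 3 were higher at an adjusted p under 0.05 (limma, Benjamini-Hochberg over all 12762 genes, the rule for a called gene throughout). In the whole table, 31.9% of genes were lower and 31.0% higher at 24 h. The median log2 difference of the members was -0.70, with a range from -2.55 to 0.94, against -0.01 over all genes. The 3 control and 3 Ikaros libraries did not overlap for the same number of members, 24 lower and 3 higher, where 36.1% and 35.0% of all genes separated in those directions. Of the members, 7 differed by at least 1 on the log2 scale, all of them lower: Nbn, Exo1, Fancc, Fancb, Xrcc2, Xrcc3 and Palb2.

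The fall built up over the day. At 0 h no member was called, 3 had an unadjusted p under 0.05, and 4.61% of all genes were higher and 3.72% lower. Every Ikaros library was below every control library at 0 h for Palb2, Rad51c, Xrcc3, Rad54l, Fancg, Fanci and Rmi1. For Brca1, Topbp1 and Mus81 every Ikaros library was above. The share of all genes separated in this way was not counted at 0 h, so these separations cannot be set against the whole table. When culture batch entered the fit as a replicate block, 1 member, Rad51c, was called lower at 0 h (log2 difference -0.54, adjusted p = 0.0478 against 0.0843 without the block). At 2 h 4 members were lower and none higher, against 9.88% and 9.18% of all genes, which is close to the background. Rad54b (adjusted p = 0.0422) and Mus81 (adjusted p = 0.0476) were also called, higher, with a replicate block that set the 0 h batches apart. At 6 h 6 were lower (19.2% of all genes) and 4 higher (18.1%). At 12 h 13 were lower (22.8% of all genes) and 5 higher (23.0%), and at 18 h 15 were lower (29.2%) and 3 higher (29.0%). The members' median log2 difference went from 0.01 at 2 h through -0.01 at 6 h and -0.23 at 12 h to -0.34 at 18 h. The counts at 2, 6 and 12 h depended on pooling the spread over all groups: fitted on the 6 libraries of each time alone, 1, 4 and 7 members were called. At 12 h 7 members were called without the replicate 2 libraries.

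**Figure D1:**
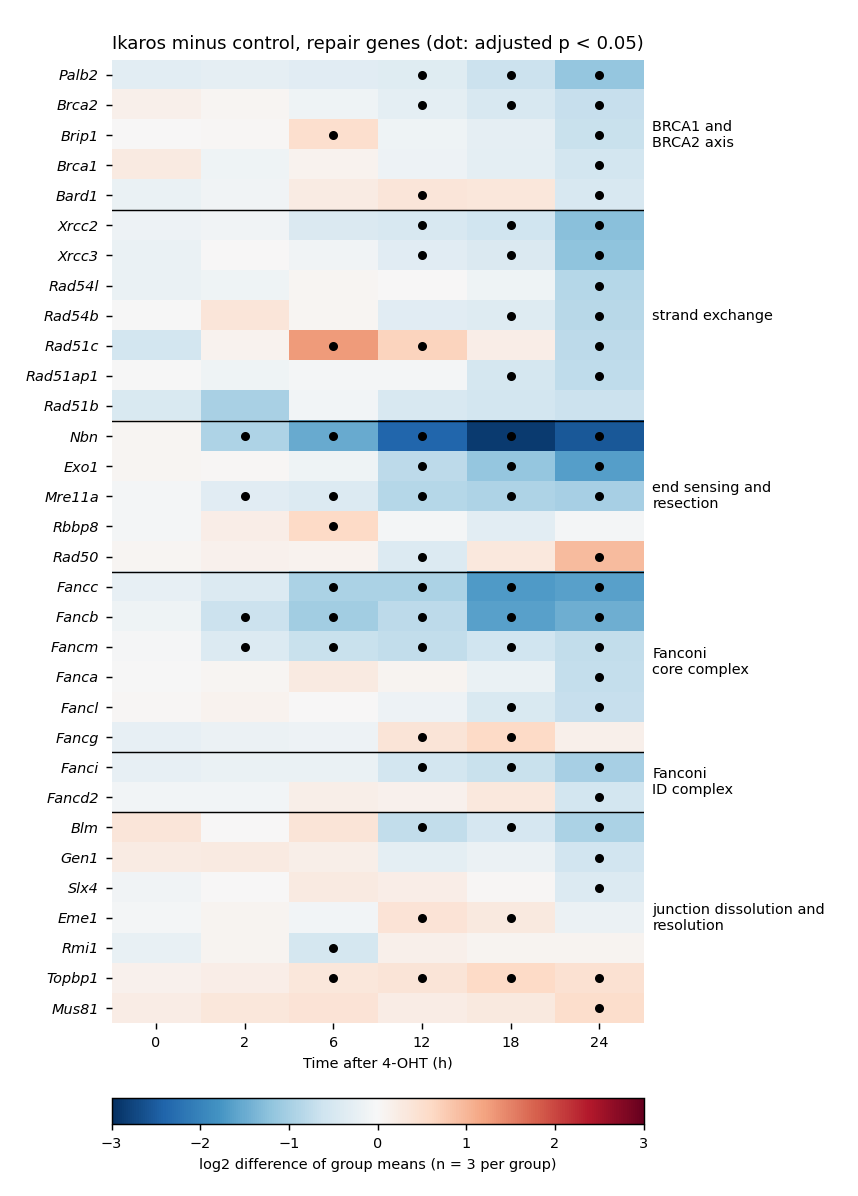
Log2 difference between Ikaros and control cells (colour, 3 libraries per group) for the 32 members by time after 4-OHT (h), ordered within 6 roles by the 24 h value; a dot marks an adjusted p under 0.05. The column at 24 h holds 24 called members below 0 and 3 above it, and the column at 0 h holds none.

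The times from which members were called lower differed, and a call depends on the error of a member as well as its difference. At 2 h Mre11a was called at -0.34 (SE 0.09) and Fancc was not at -0.40 (SE 0.25). Palb2, called from 12 h, differed by -0.31 at 0 h and by -0.37 at 12 h. Whether members differed in the timing of their fall was not tested. Counting from the earliest time after which every later time was also called lower, 4 members were lower from 2 h (Nbn, Mre11a, Fancb and Fancm), Fancc from 6 h, 7 from 12 h (Palb2, Brca2, Xrcc2, Xrcc3, Exo1, Fanci and Blm), 3 from 18 h (Rad51ap1, Rad54b and Fancl) and 9 at 24 h. Topbp1 was higher from 6 h, and Rad50 and Mus81 were higher at 24 h. The remaining 5 members, Rad51b, Rbbp8, Fancg, Rmi1 and Eme1, were not called at 24 h. Of the 4 members called at 2 h, Nbn kept its call when the replicate 1 libraries or the replicate 2 libraries were left out and when the 2 h libraries were fitted alone. Mre11a, Fancb and Fancm lost it in each of those fits (adjusted p from 0.0702 to 0.292). The 6 h call of Fancc was lost without the replicate 1 libraries (adjusted p = 0.131) and without the replicate 2 libraries (adjusted p = 0.0846). Of the 7 members lower from 12 h, Palb2, Brca2, Xrcc2, Xrcc3 and Blm lost the 12 h call without the replicate 2 libraries (adjusted p from 0.0704 to 0.271). At 18 h Xrcc2, Rad54b, Fancl and Blm lost theirs without the replicate 1 or the replicate 2 libraries (adjusted p from 0.0673 to 0.301). With the replicate block, Palb2 was also called lower at 6 h (adjusted p = 0.0429), Rad54b at 12 h (adjusted p = 0.0459) and Brca1 at 18 h (adjusted p = 0.0488), Bard1 was called higher at 18 h (adjusted p = 0.036), and Xrcc2 lost its 12 h call (adjusted p = 0.0574).

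Promoter sequence is shown for members that moved in contrasting ways: Topbp1, Fancg, Rad51c and Bard1, which were each higher in Ikaros cells at some time between 6 and 18 h, and Fancc and Fancm, which were lower from 6 h at the latest. RefSeq promoter windows (GRCm38.p6, 250 bases before to 50 after a start site) were matched by symbol for 25 of the 32 members. No window was matched for Fancd2, Xrcc2, Nbn, Rbbp8, Exo1, Rad50 or Rad54b. Each stretch below has 101 bases and is written 5′ to 3′ on the strand of the gene. Capitals mark the word each stretch was chosen for, an E2F word in the first 4 and the Ikaros core word in the last 2. The kind of word was set by hand for each gene, so the printed set cannot show whether word and direction go together. Among members not printed, Brca2 has an E2F word and was called lower from 12 h. Mus81 has the Ikaros core word and was called higher at 24 h. Words were found by letters on either strand. In Bard1 and Rad51c the word lies off centre, because the stretch ends at the edge of the window. Other words in a stretch are not marked, and the full lists are below. Both kinds of word occurred in members lower at 24 h and in members that were not. The median log2 difference at 24 h was -0.19 for members with an E2F word and -0.75 for the others with a window. For the Ikaros core word it was -0.58 with the word and -0.78 without it. A link between word and direction was not tested.
Topbp1, chr9:103305152-103305252, forward strand: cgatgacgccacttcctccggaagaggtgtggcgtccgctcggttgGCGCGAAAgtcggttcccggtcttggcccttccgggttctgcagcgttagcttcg
Fancg, chr4:43010299-43010399, reverse strand: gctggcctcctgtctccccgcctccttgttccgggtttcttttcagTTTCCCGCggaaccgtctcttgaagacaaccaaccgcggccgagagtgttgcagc
Rad51c, chr11:87404457-87404557, reverse strand: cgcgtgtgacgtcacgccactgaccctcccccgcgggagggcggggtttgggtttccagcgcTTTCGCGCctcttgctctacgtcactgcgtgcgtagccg
Bard1, chr1:71103122-71103222, reverse strand: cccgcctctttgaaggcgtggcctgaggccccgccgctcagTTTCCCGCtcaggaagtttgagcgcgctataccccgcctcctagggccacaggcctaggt
Fancc, chr13:63431730-63431830, reverse strand: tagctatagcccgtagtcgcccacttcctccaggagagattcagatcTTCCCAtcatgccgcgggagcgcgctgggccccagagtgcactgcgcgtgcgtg
Fancm, chr12:65075359-65075459, forward strand: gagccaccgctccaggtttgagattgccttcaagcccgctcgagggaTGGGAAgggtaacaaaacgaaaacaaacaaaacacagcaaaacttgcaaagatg

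The words searched, on both strands, were TTTCCCGC, TTTCGCGC, TTTGCCGC and TTTGGCGC for E2F, TTTGAA and TTCGAA for the cell cycle homology region, CCAAT for the NF-Y box, and TGGGAA for the Ikaros core. No word contains another. Some genes have more than 1 window (29 windows for the 25 members, at most 2 for a member), and a gene was counted when any of its windows held the word. An E2F word was present for 6 of the 25 members (24.0%), namely Bard1, Brca2, Rad51c, Fancg, Topbp1 and, in its second listed window alone, Rmi1, against 2.6% of the promoters of 27025 genes and 4.88% of those of 8586 genes in the deposited table. It began 209 bases before the RefSeq start site of the window in Bard1, 129 before it in Topbp1, 52 before it in Fancg and 11 after it in Rad51c. For the printed windows of Bard1, Topbp1, Fancg, Rad51c and Fancc, among others, that site lies inside the gene as annotated by GENCODE. Distances from the outer end of the annotated gene therefore differ. The second window of Rad51c, which is not printed, held another E2F word that began 5 bases before its own start site. The Ikaros core word was present for 11 members (44.0%, against 28.3% of all and 26.0% of genes in the deposited table): Brca1, Brip1, Rad51b, Rad54l, Fancc, Fancm, Topbp1, Mus81, Eme1, Gen1 and Slx4. Of these, Topbp1 (193 bases before the start site, outside the printed stretch), Mus81, Brip1 and Eme1 were each called higher at some time. The CCAAT box was present for 15 members (60.0%, against 41.1% of all and 43.6% of genes in the deposited table). A cell cycle homology word was present for 4 (16.0%, against 21.7% of all and 16.5% of genes in the deposited table). These are matches of letters, and binding was not measured in these libraries.

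Among the genes of end sensing and resection, the 3 subunits of the MRE11-RAD50-NBS1 complex went separate ways. Nbn encodes NBS1, the subunit that recruits the ATM kinase, and lies on chromosome 4 (15957925 to 15992589, forward strand, mm10). It read 12.32, 12.54 and 12.18 in the control libraries and 9.67, 9.91 and 9.84 in the Ikaros libraries at 24 h. Every Ikaros library was far below every control library. The log2 difference was -2.55 (SE 0.15, adjusted p = 8.15e-14), a level 0.171 times that of control cells and the lowest ratio among the members.

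The fall of Nbn was under way at the earliest treated time. At 2 h the control libraries read 12.39, 12.38 and 12.64 and the Ikaros libraries 11.69, 11.45 and 11.50, again without overlap (log2 difference -0.92, SE 0.15, adjusted p = 6.79e-05). At 0 h the libraries overlapped, at 12.22, 12.36 and 12.46 in control cells and 12.17, 12.58 and 12.51 in Ikaros cells. It then deepened from -1.51 at 6 h through -2.37 at 12 h to -2.88 at 18 h, each with an SE of 0.15.

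Mre11a, the nuclease subunit, on chromosome 9 (14784654 to 14837123, forward strand), read 13.82, 13.91 and 13.82 in control cells and 12.89, 12.78 and 12.90 in Ikaros cells at 24 h, so the groups were well apart. Its log2 difference was -0.99 (SE 0.09, adjusted p = 5.01e-10), after -0.34 at 2 h and -0.86 at 12 h. Rad50, the ATPase that tethers the ends, on chromosome 11 (53649519 to 53707319, reverse strand), read 13.06, 12.97 and 12.94 in control cells and 13.89, 13.99 and 13.92 in Ikaros cells at 24 h. It was the member with the highest positive difference at that time, 0.94 (SE 0.15, adjusted p = 5.1e-06), with every Ikaros library above every control library.

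Rad50 did not rise throughout. At 12 h its control libraries read 13.13, 13.11 and 13.19 and its Ikaros libraries 13.08, 12.66 and 12.43, a log2 difference of -0.42 (SE 0.15, adjusted p = 0.0266). The Ikaros libraries were lower there and spread more widely than the control libraries, and the call was lost without the replicate 2 libraries (adjusted p = 0.151) and without the replicate 3 libraries (adjusted p = 0.244). At 18 h the Ikaros libraries read 13.46, 13.49 and 13.52, above the control values of 13.15, 13.35 and 13.04, a difference that was not called.

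**Figure D2:**
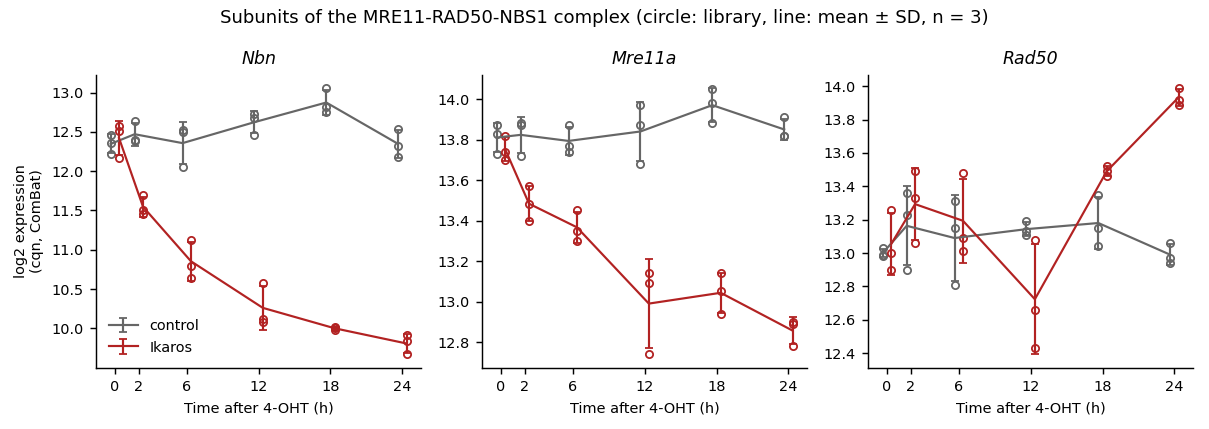
Log2 expression of Nbn, Mre11a and Rad50 by time after 4-OHT (h) in control (grey) and Ikaros (red) cells; circles are libraries, lines join group means and bars are SD (n = 3). At 24 h the Ikaros libraries sit at 9.67 to 9.91 for Nbn and 12.78 to 12.90 for Mre11a, below all control libraries, and at 13.89 to 13.99 for Rad50, above them.

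Exo1, the exonuclease of long-range resection, on chromosome 1 (175880581 to 175913489, forward strand), read 13.23, 13.15 and 13.25 in control cells and 11.48, 11.55 and 11.62 in Ikaros cells at 24 h. The groups lay far apart, with a log2 difference of -1.66 (SE 0.10, adjusted p = 8.54e-14). It had been -0.78 at 12 h and -1.16 at 18 h. Rbbp8 encodes CtIP, which starts resection together with MRE11. At 24 h it read 12.69, 12.62 and 12.43 in control cells and 12.49, 12.66 and 12.40 in Ikaros cells, with full overlap (log2 difference -0.06, SE 0.15, adjusted p = 0.733). At 6 h Rbbp8 was higher in Ikaros cells, at 12.89, 13.07 and 13.31 against 12.09, 12.64 and 12.75 (log2 difference 0.60, adjusted p = 0.00214), and this call was lost without the replicate 1 libraries (adjusted p = 0.0538).

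All 5 members of the BRCA1 and BRCA2 axis were lower at 24 h, with a median log2 difference of -0.67. Palb2, which bridges BRCA1 and BRCA2, lies on chromosome 7 (122107262 to 122132985, reverse strand) and read 10.78, 10.53 and 10.78 in control cells against 9.58, 9.51 and 9.50 in Ikaros cells. The groups did not overlap, and the log2 difference was -1.17 (SE 0.14, adjusted p = 5.48e-08). Brca2, a mediator of strand exchange, differed by -0.69 (SE 0.12) and Brca1, a ubiquitin ligase that favours resection, by -0.56 (SE 0.14). Bard1, the partner of BRCA1, differed by -0.47 (SE 0.14) and Brip1, a helicase bound to BRCA1, by -0.67 (SE 0.16). Without the replicate 2 libraries, Brca1 (adjusted p = 0.109) and Bard1 (adjusted p = 0.0717) were no longer called.

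Of the 7 strand exchange genes, 6 were lower at 24 h, and the median was -0.83. Xrcc2, an accessory factor of strand exchange, on chromosome 5 (25689812 to 25705825, reverse strand), read 11.69, 11.42 and 11.75 in control cells and 10.15, 10.63 and 10.31 in Ikaros cells (log2 difference -1.25, SE 0.19, adjusted p = 2.26e-06). Xrcc3, which pairs with the product of Rad51c, on chromosome 12 (111803192 to 111813873, reverse strand), read 11.60, 11.55 and 11.57 against 10.17, 10.59 and 10.32 (log2 difference -1.21, SE 0.09, adjusted p = 1.48e-11). For both genes all Ikaros libraries were below all control libraries. The difference of Xrcc3 had been -0.44 at 18 h.

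Rad54l and Rad54b, which encode DNA translocases of strand exchange, differed by -0.86 (SE 0.12) and -0.83 (SE 0.14). Rad51ap1, whose product stimulates strand pairing, differed by -0.76 (SE 0.11). Rad51b, another accessory factor, was the least certain member. At 24 h it read 9.77, 9.97 and 8.24 in control cells and 8.96, 8.05 and 9.0 in Ikaros cells, with the replicate 3 control library below 2 of the 3 Ikaros libraries. Its log2 difference was -0.65 (SE 0.41, adjusted p = 0.172), and without the replicate 3 libraries it was -1.36 (adjusted p = 0.000203).

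In the Fanconi core complex 5 of 6 members were lower at 24 h, and the median was -0.73. Fancc, on chromosome 13 (63285043 to 63497278, reverse strand), read 10.85, 10.67 and 10.73 in control cells and 9.06, 8.87 and 9.45 in Ikaros cells. Fancb, on chromosome X (164980592 to 164997272, forward strand), read 10.95, 10.98 and 10.59 against 9.33, 9.58 and 9.23. Both encode non-catalytic subunits of the core complex, and for both the groups were separated by more than the spread within either.

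The log2 difference at 24 h was -1.62 for Fancc (SE 0.25, adjusted p = 3.72e-06) and -1.46 for Fancb (SE 0.18, adjusted p = 7.02e-08). At 2 h Fancb already read 10.28, 10.34 and 10.72 in Ikaros cells against 10.97, 10.92 and 11.41 in control cells, without overlap (log2 difference -0.65, SE 0.18). Fancm, the translocase that anchors the complex to DNA, was lower from 2 h (-0.41, SE 0.12) to 24 h (-0.75, SE 0.12) and changed little after 6 h, where it differed by -0.66. Fancl, the ubiquitin ligase of the complex, differed by -0.68 (SE 0.17) and Fanca, a scaffold subunit, by -0.71 (SE 0.12) at 24 h.

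Fancg, a further core subunit, was the exception. At 24 h it read 11.82, 11.71 and 11.81 in control cells and 11.92, 12.11 and 11.77 in Ikaros cells, with overlap (log2 difference 0.16, SE 0.12, adjusted p = 0.273). At 18 h it read 12.24, 12.17 and 12.04 in Ikaros cells against 11.79, 11.61 and 11.29 in control cells, without overlap (log2 difference 0.59, SE 0.12, adjusted p = 0.000195).

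Both targets of the core complex were lower at 24 h. Fanci, on chromosome 7 (79391929 to 79450264, forward strand), read 11.74, 11.69 and 11.77 in control cells and 10.70, 10.84 and 10.71 in Ikaros cells (log2 difference -0.99, SE 0.13, adjusted p = 3.54e-07). The groups were clearly apart. Its partner Fancd2 differed by -0.54 (SE 0.14, adjusted p = 0.00139). At 18 h Fancd2 differed by 0.32 in the opposite direction, which was not called (adjusted p = 0.0513) but was called higher with the replicate block (adjusted p = 0.026).

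The genes for dissolving and cutting joined molecules had 3 of 7 members lower and 2 higher at 24 h, shares near those of all genes (31.9% and 31.0%), and their median was -0.17. Blm, the helicase of the dissolvasome, differed by -0.94 (SE 0.22), Gen1, a resolvase, by -0.58 (SE 0.17), and Slx4, the scaffold for structure-specific nucleases, by -0.40 (SE 0.16). Gen1 lost its call without the replicate 1 libraries (adjusted p = 0.0832), and Slx4 lost it without the replicate 2 libraries (adjusted p = 0.153) and without the replicate 3 libraries (adjusted p = 0.0688).

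Topbp1 encodes an adaptor of BLM and of the ATR kinase and lies on chromosome 9 (103305215 to 103350428, forward strand). It read 14.98, 14.81 and 14.82 in control cells and 15.27, 15.39 and 15.30 in Ikaros cells at 24 h, without overlap (log2 difference 0.45, SE 0.09, adjusted p = 4.87e-05). It was higher at 6 h (0.34), 12 h (0.39) and 18 h (0.60), where the 6 h call was lost without the replicate 1 or the replicate 2 libraries (adjusted p = 0.0614 and 0.0719) and the 12 h call without the replicate 2 libraries (adjusted p = 0.0891). Mus81, the catalytic subunit of a junction nuclease, on chromosome 19 (5482345 to 5488402, reverse strand), read 11.91, 11.72 and 11.90 against 12.37, 12.22 and 12.49 in Ikaros cells at 24 h (log2 difference 0.52, SE 0.18, adjusted p = 0.0127). All Ikaros libraries of Mus81 were above all control libraries, yet the call was lost without the replicate 1 libraries (adjusted p = 0.0959) and without the replicate 2 libraries (adjusted p = 0.0656). At 6 h Mus81 differed by 0.40, not called at an adjusted p of 0.0781 and called with the replicate block (adjusted p = 0.0183). For both genes the Ikaros libraries were already above all control libraries at 0 h. The log2 difference there was 0.13 for Topbp1 (limma, adjusted p = 0.469) and 0.22 for Mus81 (adjusted p = 0.575), neither called. The change of the Mus81 difference from 0 to 24 h was not called.

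Eme1, the non-catalytic partner of MUS81, did not follow it at 24 h. It read 12.17, 12.22 and 12.35 in control cells and 11.92, 12.22 and 12.09 in Ikaros cells, with overlap (log2 difference -0.17, SE 0.12, adjusted p = 0.221). At 18 h its Ikaros libraries, at 12.56, 12.51 and 12.43, were above the control libraries at 12.23, 12.22 and 12.15 (log2 difference 0.30, adjusted p = 0.033). That call was lost without the replicate 1 libraries (adjusted p = 0.188) and without the replicate 2 libraries (adjusted p = 0.128). Rmi1, which stabilises BLM with topoisomerase, read 10.50, 10.21 and 10.26 against 10.45, 10.24 and 10.55 in Ikaros cells at 24 h, with full overlap (log2 difference 0.09, SE 0.15, adjusted p = 0.635).

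Rad51c, Brip1 and Bard1 were called higher in Ikaros cells in mid-course and lower at 24 h; they were singled out after their values were seen. Rad51c encodes an accessory factor of strand exchange and lies on chromosome 11 (87376645 to 87404954, reverse strand). At 6 h it read 9.25, 9.38 and 9.62 in control cells and 10.52, 10.51 and 11.07 in Ikaros cells, a log2 difference of 1.28 (SE 0.19, adjusted p = 6.27e-06) with the groups far apart. At 24 h it read 10.25, 10.15 and 10.25 in control cells and 9.57, 9.55 and 9.15 in Ikaros cells, far apart in the other direction (log2 difference -0.79, SE 0.19, adjusted p = 0.000703).

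At 0 h Rad51c had also been below control in every library, at 9.41, 9.45 and 9.22 against 9.85, 9.92 and 9.92. Within Ikaros cells its 24 h level differed from the 0 h level by 0.06 (SE 0.19, adjusted p = 0.781). Its change from 6 to 24 h, the difference at 24 h minus that at 6 h, was -2.07 (SE 0.27, adjusted p = 6.58e-07), while the change from 0 to 24 h was -0.26 (SE 0.27, adjusted p = 0.455).

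Brip1 at 6 h read 11.55, 12.04 and 11.98 in control cells and 12.44, 12.14 and 12.54 in Ikaros cells (log2 difference 0.51, SE 0.16, adjusted p = 0.0153). The groups did not overlap, but the call was lost without the replicate 1 libraries (adjusted p = 0.247) and without the replicate 3 libraries (adjusted p = 0.0556). At 24 h it read 12.23, 12.05 and 11.69 against 11.58, 11.20 and 11.19, lower in all Ikaros libraries. Bard1 at 12 h read 13.12, 12.86 and 13.02 in control cells and 13.17, 13.37 and 13.57 in Ikaros cells (log2 difference 0.37, SE 0.14, adjusted p = 0.0367), and at 24 h 12.92, 12.88 and 12.81 against 12.53, 12.50 and 12.18. The 12 h groups of Bard1 were close to each other, and the call was lost without the replicate 2 libraries (adjusted p = 0.336) or the replicate 3 libraries (adjusted p = 0.123).

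**Figure D3:**
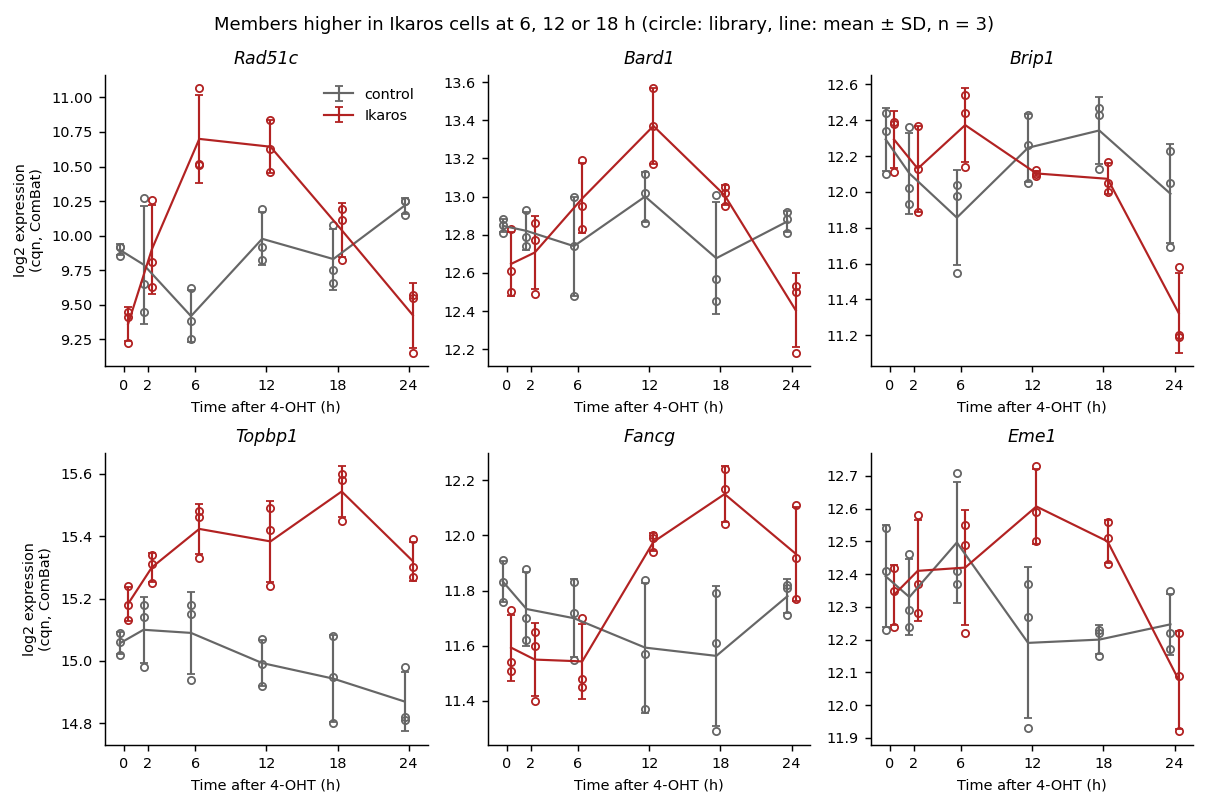
Log2 expression of Rad51c, Bard1, Brip1, Topbp1, Fancg and Eme1 by time after 4-OHT (h) in control (grey) and Ikaros (red) cells; circles are libraries, lines join group means and bars are SD (n = 3), and each panel has its own axis range. Rad51c in Ikaros cells reads 10.51 to 11.07 at 6 h and 9.15 to 9.57 at 24 h.

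The change of the Ikaros-control difference over time was tested directly. From 0 to 24 h, 20 members moved lower and 2 higher (Rad50 by 0.89 and Topbp1 by 0.33), where 24.2% of all genes moved lower and 24.2% higher. Without the replicate 2 libraries 13 members were called. The change of Topbp1 was lost whichever replicate was left out (adjusted p from 0.0821 to 0.208), which left Rad50 of these 2. Without the replicate 3 libraries Fancg was also called higher (log2 change 0.59, adjusted p = 0.00935). From 2 to 24 h, a contrast between treated cultures, 19 members moved lower and 1, Rad50, higher (24.0% and 23.3% of all genes), and 12 were called without the replicate 1 libraries. From 6 to 24 h, a comparison added after the values were seen, 22 moved lower and 2, Rad50 and Rmi1, higher (20.7% and 19.7% of all genes). That count was 15 without the replicate 1 libraries and 14 without the replicate 2 libraries. The call of Rmi1 was lost whichever replicate was left out (adjusted p from 0.0524 to 0.351). Rmi1 had been called lower at 6 h (log2 difference -0.52, SE 0.15, adjusted p = 0.00784) and differed by 0.09 at 24 h. Its 6 h call was lost without the replicate 3 libraries (adjusted p = 0.17). The replicate block added Fancg (higher) and Fancd2 (lower) to the change from 0 h, Brca1, Fancd2 and Slx4 to that from 2 h and Fancc to that from 6 h, all of the last 4 genes lower. These comparisons share their 24 h libraries.

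Each line was also compared with its own 0 h libraries. At 24 h Ikaros cells had 23 members lower and 3 higher (Rad50 by 0.88, Mus81 by 0.52 and Fancg by 0.34), where 29.6% of all genes were lower and 31.0% higher. Of the higher members, Mus81 (adjusted p = 0.116) and Fancg (adjusted p = 0.0863) were lost without the replicate 1 libraries, and Fancg also without the replicate 2 libraries (adjusted p = 0.365). Rad51b lost its lower call without either of those replicates (adjusted p = 0.143 and 0.269) and with the replicate block that set the 0 h batches apart (adjusted p = 0.181). Control cells had 0 members called by limma, with 3 at an unadjusted p under 0.05 (Brca1, Rad51b and Topbp1), and 0.470% of all genes called in either direction. The members' median log2 change was -0.74 in Ikaros cells and -0.03 in control cells. Nbn fell by 2.62 on the log2 scale in Ikaros cells (SE 0.15) and changed by less than its error in control cells.

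**Figure D4:**
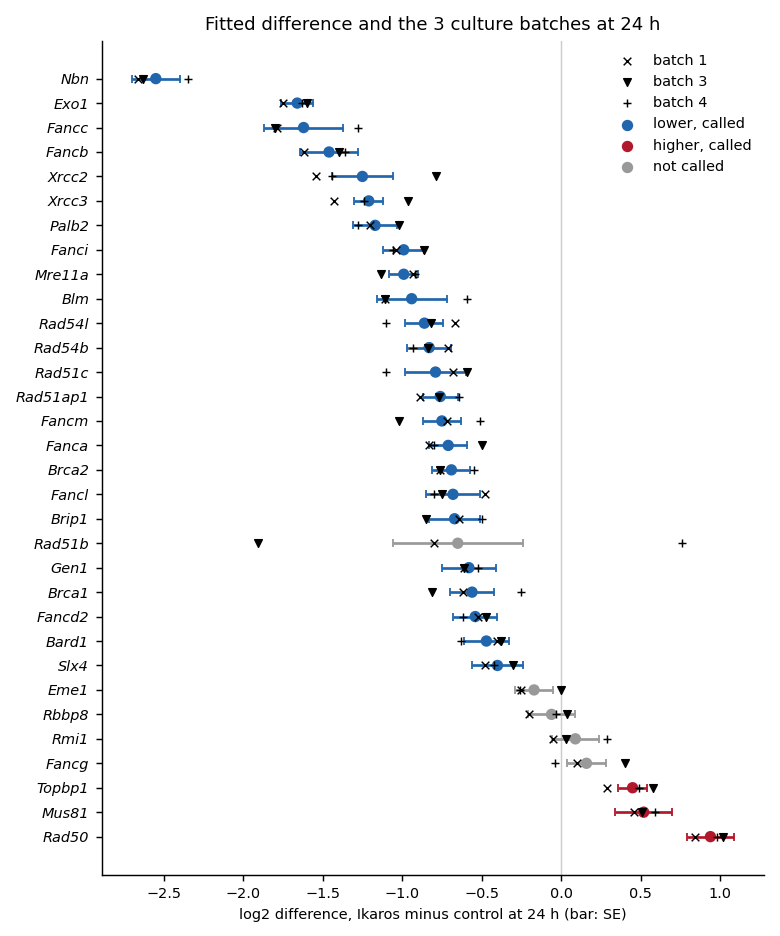
Log2 difference between Ikaros and control cells at 24 h for the 32 members, with its SE (bars) and the difference within each of the culture batches 1, 3 and 4 (black marks). Blue and red points are called lower and higher and grey points are not called; all 27 called members have the same sign in the 3 batches, and Rad51b spreads to both sides of 0.

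Within each of the 3 culture batches at 24 h the 27 called members kept the sign of their pooled difference, as plotted for every member. The 5 members that were not called did not keep a single sign across the batches: Eme1 was at 0.00 in batch 3, and Rad51b, Rbbp8, Fancg and Rmi1 fell on both sides of 0.

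Related gene lists were read beside the members, against shares of 31.9% lower and 31.0% higher over all genes at 24 h. Of 40 other genes of homologous recombination and the Fanconi pathway, 33 were measured, and 18 were lower and 5 higher at 24 h (median log2 difference -0.45). They included the nuclease Dna2 at -2.92 (SE 0.12) among the lower genes and the strand exchange factor Rad51d at 0.52 (SE 0.10) among the higher genes. Of 17 damage signalling genes, which encode the kinases and mediators that report breaks, 12 were lower and 1 higher (median -0.53), with the checkpoint kinase Chek1 at -1.90 (SE 0.12) and the mediator Mdc1 at 0.95 (SE 0.22). Of 10 genes of non-homologous end joining, 5 were higher and 2 lower (median 0.43), a median of the opposite sign to that of the members, with the ligase Lig4 at 4.51 (SE 0.20) and the Ku subunits Xrcc6 at 1.86 (SE 0.14) and Xrcc5 at -0.73 (SE 0.17).

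Genes of DNA replication and mitosis were read over the same hours. At 24 h 36 of 40 replication genes were lower and 0 higher (median -0.83), where 31.9% and 31.0% of all genes were, and at 18 h 21 were lower and 2 higher (median -0.30, all genes 29.2% and 29.0%). Of 28 mitosis genes, 13 were higher and 1 lower at 6 h (median 0.33, all genes 18.1% and 19.2%). At 18 h 8 mitosis genes were higher and 5 lower (median 0.20, all genes 29.0% and 29.2%), where the members' median was -0.34. By 24 h 15 mitosis genes were lower and 2 higher (median -0.25). Homologous recombination genes are themselves expressed mainly in dividing cells, and the part of the change in cell division in the members' values was not tested.

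**Figure D5:**
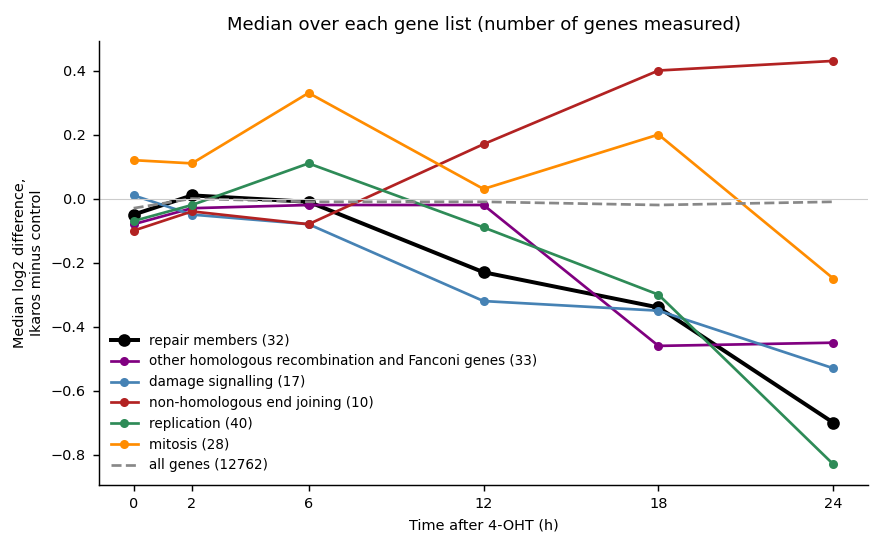
Median log2 difference between Ikaros and control cells by time after 4-OHT (h) for the 32 members (black), 5 related gene lists (colours, with the number of genes measured) and all 12762 genes (dashed). At 24 h the members are at -0.70, replication genes at -0.83 and end joining genes at 0.43, while all genes are at -0.01.

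Some members share transcribed sequence with a neighbour in the GENCODE annotation of the same build. More than 10% of exon bases overlapped another gene for 6 members: Rad54b (35.8%, Fsbp on the same strand), Fancc (16.4%), Fanci (16.0%, Polg), Rad54l (15.4%, Lrrc41), Fancl (13.7%, Vrk2) and Fanca (10.5%, Zfp276), the last 5 with genes on the opposite strand. The libraries kept strand information, but whether the counting used it is not given in the sources used here, so the values of these 6 members are less certain.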

How the data were processed

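Polyadenylated RNA of 36 B3 cultures was sequenced as stranded paired-end libraries. The authors trimmed reads, aligned them to mm10 (TopHat2, unique best hits), counted fragments per gene (HTSeq), corrected GC content and length effects with cqn and removed library preparation effects with ComBat in its non-parametric form. The deposited table is therefore in log2 units, and a constant seems to have been added so that the lowest value is 1. Differences are free of that constant, and levels are not compared between genes. Adjustment before deposition removes variation a later model cannot see, so standard errors may be too small. Versions of the aligner and counter are not given in the sources used here.

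Groups, times and batches came from the labels. The 32 members and all gene lists were chosen with earlier results of these data known. Every contrast was fitted with limma 3.58.1 in R 4.3.3 as a single linear model of 12 group means over all 12762 genes, with two-sided p-values adjusted by Benjamini-Hochberg over all genes and a threshold of 0.05. The scripts were tested on simulated data. Each member was named with its 24 h difference, and library values were given for the 8 largest and 4 smallest absolute differences at 24 h, for members called at 0 or 2 h with an absolute difference of at least 0.5, and for members called higher at 18 or 24 h. Rad51c, Brip1, Bard1 and Rad51b were shown in full after their values were seen.

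Control and Ikaros cultures shared numbered batches, which the labels give, so that they are paired by culture batch. Of 18 same-batch pairs, 12 had correlated deviations over 0.1 (-0.062 to 0.507, median 0.128). Alternatives were the batch as a replicate block (also with separate 0 h batches), a 25th percentile expression filter, quantile normalization, median centring, a trended and robust eBayes, only the compared groups, and each replicate left out. Overlaps used GENCODE M21 and promoters used RefSeq, with Python 3.11.15.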

Additional observations from a re-analysis of the deposited data

Results flagged for a closer look

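The difference between Ikaros and control cells itself changed with time for many members, by the interaction terms of the limma model. It changed for 22 members from 0 to 24 h (20 lower and 2 higher, where 24.2% of all genes changed in each direction), for 20 from 2 to 24 h (19 lower and 1 higher, against 24.0% and 23.3%) and for 24 from 6 to 24 h (22 lower and 2 higher, against 20.7% and 19.7%), the last comparison added after the values were seen. With a replicate left out these counts fell to as few as 13, 12 and 14.

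Members that were called in both directions at separate times had these changes from 6 to 24 h on the log2 scale: -2.07 for Rad51c, -1.18 for Brip1, -0.72 for Bard1 and 0.85 for Rad50. The changes for Bard1 and Rad50 were not called without the replicate 2 libraries (adjusted p = 0.0928 and 0.0979). The earlier call of Bard1 and of Rad50 was at 12 h, so this contrast does not start at that call. The difference for Nbn changed by -2.62 from 0 to 24 h and by -1.62 from 2 to 24 h. Outlying single libraries were not tested for, since each group has 3.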

How the results depend on the processing

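The 24 h comparison called 27 members and between 23 and 27 in the alternatives, and 24 of the 32 members kept the side of the threshold and the direction of their 24 h difference in each alternative run. The replicate block for paired culture batches changed no call at 24 h. At 0 h 0 members were called, and 1 under both versions of the replicate block and with only the compared groups, and 0 to 1 with a replicate left out. The 2 h count of 4 was 1 to 5 with a replicate left out 1 with only the compared groups and 6, of which 2 higher, with the replicate block that set the 0 h batches apart. With only the compared groups the 6 h count of 10 was 4 and the 12 h count of 18 was 7, and with a replicate left out the 12 h count was 7 to 15. With a replicate left out the counts for the change to 24 h were 13 to 24 from 0 h, 12 to 23 from 2 h and 14 to 26 from 6 h. Each such fit had fewer libraries, and the cause of these losses was not tested. With a replicate left out the 24 h differences of Rbbp8 (-0.11 to 0.01) and Rmi1 (-0.01 to 0.16) crossed 0 and were never called. The median log2 difference of all genes at 24 h was -0.005, and -0.016 after quantile normalization and -0.014 after median centring. The number of libraries, 3 per group, limits precision, and without counts no counting error can be given.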
